A study of Mus musculus with 9 samples.

Results

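The 43 genes described here encode proteins of the neuronal cytoskeleton, of axonal adhesion and of the machinery that releases transmitter at synapses, and they were followed in neural stem cells (NSCs) made from mouse embryonic stem cells. They were chosen by symbol, as a fixed list of 43 of the 38197 gene symbols in the deposited tables, and all 43 had a row. By role they comprise 18 early cytoskeleton genes (9 of microtubules, 5 of intermediate filaments and 4 of the growth cone), 3 cell adhesion genes, 18 synaptic release genes (12 of vesicle proteins and 6 of the release site) and 4 genes of transmitter synthesis and loading. The NSCs came from wild-type E14.1 cells of strain 129, grown as a monolayer and exposed to RA (retinoic acid) and SAG, an agonist of the Shh receptor component Smo, from 0 to 3 DDC (days in differentiation conditions) according to the labels, while the study's methods place the change of medium somewhat later. Progenitors were captured on magnetic beads through prominin-1, which they carry on their surface, at 4.5DDC, 5.5DDC and 6.5DDC, with 3 libraries of polyadenylated RNA per time point. All 9 libraries share the parental line, the genotype, RA, SAG and the sort, so that time after the start of differentiation is the only labelled difference between groups, and no untreated group was analysed here.

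Newborn neurons first build microtubules and intermediate filaments for the axon and dendrites, under the control of tubulins, stathmins, microtubule-associated proteins and neurofilament proteins, and extend them behind a growth cone. Transmitter release comes later, when vesicle proteins such as synaptotagmins and synaptobrevins meet the syntaxin and Snap25 proteins of the target membrane, with complexins holding the assembled complex until calcium enters. Dividing progenitors make less use of many of these genes, but not all of them are restricted to neurons. Several of these genes are textbook targets of the repressor REST, which silences neuronal genes in non-neuronal cells. A sort for prominin-1 enriches progenitors, and RNA of neurons that carry the protein or pass through the beads is part of such a sample. In bulk RNA, a change in the number of neurons and a change in RNA per cell cannot be told apart.

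The libraries held between 11066572 and 25506192 counts, and the floor of detection, set at 3 counts, amounted to between 0.118 and 0.271 CPM (counts scaled to the library total). Levels are given in FPKM, a read density that the authors computed with Cufflinks and that is scaled both by transcript length and by sequencing depth, which allows genes to be set side by side, and changes are given as log2 fold changes of the counts with their standard error (SE), from edgeR's quasi-likelihood test over 14742 genes with Benjamini-Hochberg adjustment at a threshold of 0.05. Of the 43 genes, 39 passed the filter on low counts and were tested, and the 4 genes of transmitter synthesis and loading were not. Replicate 1 stood apart from replicates 2 and 3 at every time point. The correlation of log2 values between libraries of 1 time point was 0.977, 0.993 and 0.983 between replicates 2 and 3 and between 0.945 and 0.967 where replicate 1 was one of the pair. The results below are therefore given with all 9 libraries, in a fit with the time point as its only factor unless the replicate number is named as a block, and, for members whose call differs, with replicates 2 and 3 only, a choice made after seeing the data. The labels number the replicates without saying which cultures they came from, and p-values measure the spread between these libraries, which may be technical.

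From 4.5DDC to 6.5DDC more of the synaptic release genes than of the early cytoskeleton genes rose, although the cytoskeleton genes were far more abundant. Of the 39 tested genes, 11 rose and 0 fell, and 8 of the 11 were among the 18 synaptic release genes (Syt1, Syt4, Vamp2, Rab3c, Sv2a, Sv2b, Cplx2 and Nrxn3), 1 was among the 18 early cytoskeleton genes (Map2) and 2 were among the 3 adhesion genes (Ncam1 and Nrcam). Across all 14742 genes tested, 9.21% were called higher and 9.53% lower in the same contrast. The median log2 fold change was 1.16 over the synaptic release genes and 0.56 over the early cytoskeleton genes, a difference of 0.60, beside 0.00 over all genes tested. The cytoskeleton median rested on single libraries, and was 1.19 without replicate 2 of 4.5DDC, 0.97 without replicate 1 of 6.5DDC and 0.30 without replicate 1 of 4.5DDC or replicate 3 of 6.5DDC. Positive values were found for 17 of the 18 synaptic release genes and for 16 of the 18 cytoskeleton genes. The lists differed in their medians and in the spread, as Mapt (2.78, SE 0.942) was not called while Vamp2 (0.80, SE 0.169) was. The genes were chosen with earlier results of these data known, and the lists are set side by side as a description with no test between them. The FPKM of 13 genes did not overlap between the libraries of 4.5DDC and 6.5DDC, all with 6.5DDC higher (8 synaptic release, 3 cytoskeleton and 2 adhesion genes), beside 17.9% of all genes tested.

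The choice of libraries set how many of these genes were called. With replicates 2 and 3 only, 25 of the 39 genes rose (16 synaptic release, 6 cytoskeleton and 3 adhesion genes), beside 16.5% of all genes, and the medians were 1.31 for synaptic release and 0.64 for the cytoskeleton. Without the library of replicate 2 at 4.5DDC, 7 genes were called (Map2, Ncam1, Nrcam, Syt1, Sv2b, Cplx2 and Nrxn3). The log2 fold change within a replicate number was positive in all 3 numbers for 15 of 18 synaptic release genes and for 9 of 18 cytoskeleton genes, beside 25.5% of all genes tested. Within replicates 1, 2 and 3 the cytoskeleton medians were 0.74, 0.09 and 1.24, and the synaptic release medians were 0.63, 1.15 and 1.67. The order of the lists thus held within replicates 2 and 3 and was inverted within replicate 1.

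**Figure D1:**
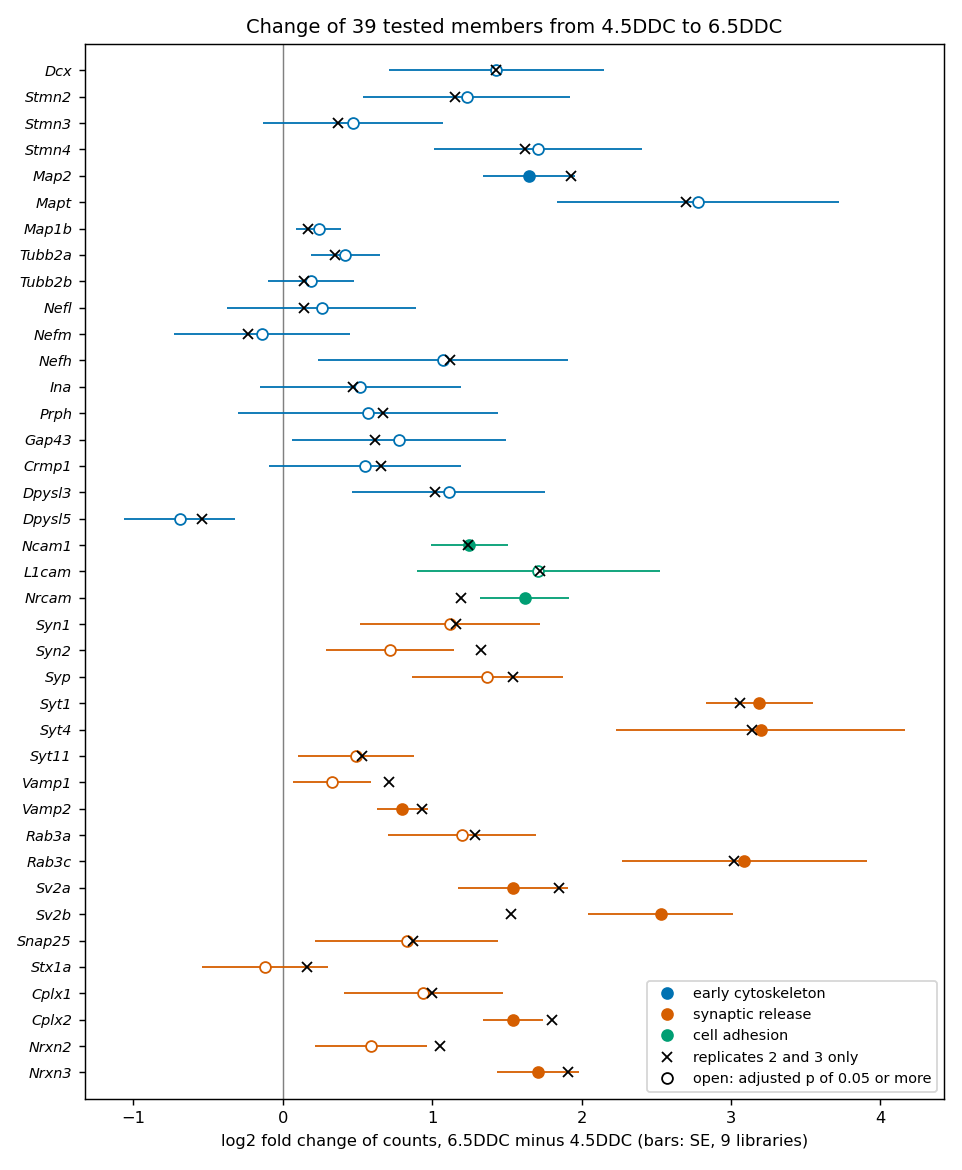
Log2 fold change of counts from 4.5DDC to 6.5DDC (horizontal axis) for each of the 39 tested genes, coloured by list, with bars for the SE over 9 libraries. Filled points are the 11 genes called, open points those that were not, and crosses give the fit to replicates 2 and 3 only. Most synaptic release genes lie above a log2 fold change of 0.5, while several cytoskeleton genes with values above 1, such as Mapt, have long bars.

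In summed FPKM the cytoskeleton genes outweighed the synaptic release genes in every library. The 18 cytoskeleton genes summed to 748, 1724 and 1074 FPKM in replicates 1 to 3 of 4.5DDC, to 721, 1866 and 1796 at 5.5DDC and to 1097, 1891 and 2212 at 6.5DDC. The 18 synaptic release genes summed to 137, 168 and 134 FPKM at 4.5DDC, to 154, 247 and 249 at 5.5DDC and to 209, 317 and 396 at 6.5DDC. The synaptic sum of each 6.5DDC library was above that of every 4.5DDC library, whereas the cytoskeleton sums overlapped because replicate 1 was low throughout. Expressed against the cytoskeleton sum, the synaptic sum came to 9.72% and 12.5% in replicates 2 and 3 of 4.5DDC and to 16.8% and 17.9% at 6.5DDC. In replicate 1 it was already 18.3% at 4.5DDC and was 19.1% at 6.5DDC, so that the shift in the balance of the lists was seen in replicates 2 and 3 and not in replicate 1. All 43 genes together took from 0.397% to 1.12% of a library's counts.

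**Figure D2:**
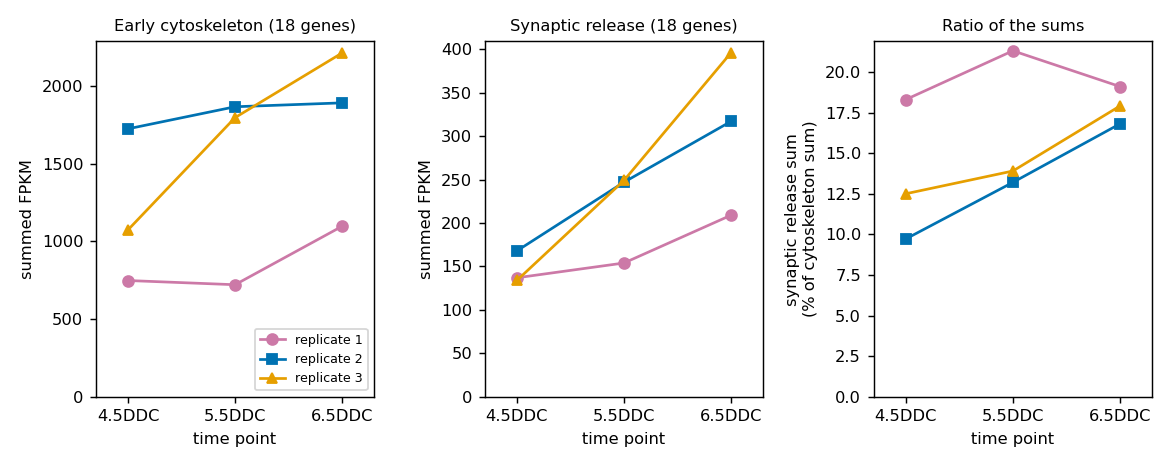
Summed FPKM of the 18 early cytoskeleton genes (left), of the 18 synaptic release genes (middle) and the synaptic sum in percent of the cytoskeleton sum (right), against the time point. Each point is 1 library, and lines join libraries with the same replicate number. The ratio climbs from 9.72% to 16.8% in replicate 2 and stays between 18.3% and 21.3% in replicate 1.

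Among the microtubule genes, Map2 (microtubule-associated protein 2, a protein of dendrites, chr1:66175273-66442583 in GRCm38) rose. The other 8 were not called by edgeR with all 9 libraries and the time point as the only factor. Its FPKM was 46.3, 46.1 and 51.2 in replicates 1 to 3 of 4.5DDC, 66.5, 89.8 and 97.8 at 5.5DDC, and 79.4, 182 and 199 at 6.5DDC. The time points 4.5DDC and 6.5DDC did not overlap, and the replicates that were alike at 4.5DDC spread apart by 6.5DDC, with replicate 1 the lowest. The log2 fold change was 1.65 (SE 0.309, adjusted p = 0.00768), and within replicates 1, 2 and 3 it was 0.76, 2.06 and 1.81.

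Mapt and Dcx, with log2 fold changes of 2.78 and 1.43, had a wider spread than Map2 and were not called in that fit. Mapt (tau, the microtubule-associated protein of axons, chr11:104231390-104332090) was at 0.764, 5.79 and 3.19 FPKM at 4.5DDC, at 1.60, 15.5 and 13.8 at 5.5DDC and at 7.88, 25.9 and 33.0 at 6.5DDC. Each replicate number climbed at each step, and replicate 1 was the lowest of its time point throughout. The log2 fold change of 2.78 (SE 0.942) missed the threshold (adjusted p = 0.0661), and Mapt was called in the fit to replicates 2 and 3 (2.70, adjusted p = 0.000392). It was called in 7 of 21 alternative settings, among them DESeq2 (adjusted p = 0.0332) and the replicate block (0.00122). Dcx (doublecortin, which binds microtubules in migrating neurons, chrX:143855842-143933311) was at 7.50, 30.0 and 25.7 FPKM at 4.5DDC, at 6.44, 37.8 and 38.6 at 5.5DDC and at 20, 74.3 and 78.9 at 6.5DDC. Replicate 1 at 6.5DDC lay below replicates 2 and 3 at 4.5DDC, so that the time points overlapped although the change within a replicate number was nearly equal (1.40, 1.36 and 1.51). With all libraries the log2 fold change of Dcx was 1.43 (SE 0.722, adjusted p = 0.186), and with replicates 2 and 3 only it was also 1.43 (adjusted p = 0.000548).

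The 3 stathmins, which bind tubulin dimers and promote disassembly of microtubules, were not called over time with the time point as the only factor. Stmn2 went from 28.5, 104 and 69.7 FPKM at 4.5DDC to 87.1, 194 and 199 at 6.5DDC, with a log2 fold change of 1.23 (SE 0.693, adjusted p = 0.231). Stmn4 went from 9.77, 32.3 and 23.2 FPKM to 44.4, 102 and 89.3 without overlap between these time points (1.71, SE 0.696, adjusted p = 0.112). Stmn3 was at 7.60, 36.7 and 14.5 FPKM at 4.5DDC and at 14.0, 27.6 and 38.7 at 6.5DDC (0.47, SE 0.60, adjusted p = 0.613), and its libraries overlapped widely. With replicates 2 and 3 only, Stmn2 and Stmn4 rose (adjusted p = 0.00283 and 0.0014) and Stmn3 did not pass (0.465).

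Map1b and the beta-tubulins had the smallest SEs of the cytoskeleton genes and were among the most abundant. Map1b (microtubule-associated protein 1B, found in growing axons) averaged 98.2 ± 13.2 FPKM at 4.5DDC, 106 ± 5.76 at 5.5DDC and 117 ± 7.61 at 6.5DDC (SD, n = 3), with a log2 fold change of 0.24 (SE 0.149, adjusted p = 0.27). Replicate 1 of Map1b was lowest at 4.5DDC and 6.5DDC and highest at 5.5DDC. Tubb2b had the highest mean level of the 43 genes at 6.5DDC, with 211, 400 and 234 FPKM at 4.5DDC and 254, 292 and 408 at 6.5DDC (0.19, SE 0.29, adjusted p = 0.676). Tubb2a averaged 130 ± 61.1 FPKM at 4.5DDC and 137 ± 38.4 at 6.5DDC (SD, n = 3), with a log2 fold change of 0.42 (adjusted p = 0.22). The values of this pair are uncertain, since 45.6% of the 50-base stretches in the exons of Tubb2a (chr13:34074274-34078007) also occur in Tubb2b (chr13:34126748-34130466), and reads as short as these can be assigned to either gene. Tubb3, the beta-tubulin most used as a neuronal marker, had no row and is not analysed here.

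None of the 5 intermediate filament genes was called over time, while 3 of them (Nefl, Nefm and Ina) differed by replicate number. Nefl (neurofilament light chain) was at 22.9, 89.3 and 49.0 FPKM at 4.5DDC, at 14.4, 91.4 and 87.4 at 5.5DDC and at 39.4, 80.0 and 74.8 at 6.5DDC, and Nefm (neurofilament medium chain) was at 49.4, 158 and 91.9, at 28.2, 148 and 155 and at 56.4, 124 and 93.4. Replicate 1 was the lowest library at each time point for both genes, and replicate 2 at 4.5DDC was already as high as any library at 6.5DDC. The log2 fold changes were 0.26 (SE 0.635, adjusted p = 0.803) for Nefl and −0.14 (SE 0.589, adjusted p = 0.888) for Nefm. In the annotation 32.8% of the exonic bases of Nefl lie opposite exons of Nefm, and the strand setting of the counting is not given in the sources used here, so reads of that stretch cannot be assigned with certainty. Ina (alpha-internexin, the filament protein that precedes neurofilaments in many neurons) averaged 37.1 ± 21.1 FPKM at 4.5DDC and 53.7 ± 25.0 at 6.5DDC (SD, n = 3; 0.52, adjusted p = 0.619), and 14.1% of its exonic bases lie opposite Nt5c2. Prph (peripherin, of peripheral and some brainstem neurons) stayed between 0.358 and 5.03 FPKM and Nefh (neurofilament heavy chain) at or below 0.599 FPKM, with between 1 and 48 counts per library.

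Nor was any of the 4 growth cone genes called with the time point as the only factor. Gap43 (a membrane protein of growth cones) was at 28.1, 140 and 81.9 FPKM at 4.5DDC, at 23, 184 and 171 at 5.5DDC and at 98.8, 171 and 193 at 6.5DDC (0.78, SE 0.716, adjusted p = 0.47). The change of Gap43 was 1.65 within replicate 1 and 0.14 within replicate 2, the latter starting high. Dpysl3 and Crmp1, collapsin response mediator proteins of the growth cone, had log2 fold changes of 1.11 (SE 0.648, adjusted p = 0.248) and 0.55 (SE 0.641, adjusted p = 0.571), and Dpysl3 rose with replicates 2 and 3 only (1.02, adjusted p = 0.00186). Dpysl5, of the same family, had the lowest value of the 39 genes, −0.69 (SE 0.373, adjusted p = 0.218). Its FPKM was 55.8, 94.1 and 49.5 at 4.5DDC and 19.9, 35.4 and 62.2 at 6.5DDC, lower in replicates 1 and 2 (−1.24 and −1.12) and level in replicate 3 (0.05). With the replicate number as a block, Gap43 was called higher (1.06, adjusted p = 0.048) and Dpysl5 lower (−0.78, adjusted p = 0.0385).

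Of the adhesion genes, which encode immunoglobulin-type proteins of axons, Ncam1 and Nrcam rose. Ncam1 was at 21.8, 34.0 and 31.7 FPKM at 4.5DDC, at 41.3, 62.8 and 69.8 at 5.5DDC and at 51.2, 72.9 and 91.0 at 6.5DDC. No library of 4.5DDC reached any of the later time points, and the log2 fold change was 1.25 (SE 0.257, adjusted p = 0.0108). Nrcam was at 27.5, 20.7 and 28.9 FPKM at 4.5DDC, at 54.3, 43.4 and 44.7 at 5.5DDC and at 119, 62.5 and 54.6 at 6.5DDC. The libraries of successive time points did not overlap for Nrcam, and here replicate 1 was the highest at 6.5DDC. Its log2 fold change was 1.62 (SE 0.299, adjusted p = 0.00737) with all libraries and 1.19 (adjusted p = 0.00472) without replicate 1. L1cam went from 5.28, 17.2 and 10.4 FPKM at 4.5DDC to 14.2, 33.9 and 49.4 at 6.5DDC (1.71, SE 0.812, adjusted p = 0.162), with overlap through replicate 1, and rose with replicates 2 and 3 only (1.72, adjusted p = 0.00335).

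The synaptotagmins Syt1 and Syt4 and the GTPase Rab3c had the largest changes of the 39 genes. Syt1, the calcium sensor of fast transmitter release (chr10:108497650-109010982), was at 1.51, 2.72 and 2.45 FPKM at 4.5DDC, at 4.11, 9.64 and 9.76 at 5.5DDC and at 16.9, 24.2 and 20.2 at 6.5DDC. The 3 time points did not overlap, the mean rose 9.15-fold, and the log2 fold change was 3.19 (SE 0.359, adjusted p = 0.00133), with 3.52, 3.19 and 2.89 within replicates 1 to 3. Rab3c (chr13:110054187-110280996), a small GTPase on synaptic vesicles, was at 0.359, 1.63 and 1.52 FPKM at 4.5DDC, at 0.508, 3.93 and 4.08 at 5.5DDC and at 3.86, 12.5 and 14.1 at 6.5DDC (3.09, SE 0.82, adjusted p = 0.0291). Syt4, a synaptotagmin also found on dense-core vesicles, was at 0.465, 2.52 and 2.34 FPKM at 4.5DDC, at 0.566, 8.06 and 8.22 at 5.5DDC and at 5.09, 23.4 and 20.8 at 6.5DDC (3.20, SE 0.967, adjusted p = 0.0456). For Rab3c and Syt4 replicate 1 was lowest at each time point, but its 6.5DDC library lay above all libraries of 4.5DDC. Syt1 was called in 21 of 21 alternative settings (adjusted p between 1.27e-17 and 0.00843), Rab3c in 16 (between 0.00018 and 0.0847) and Syt4 in 11 (between 0.00018 and 0.129). An annotated transcript on the opposite strand covers 14.5% of the exonic bases of Syt4.

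**Figure D3:**
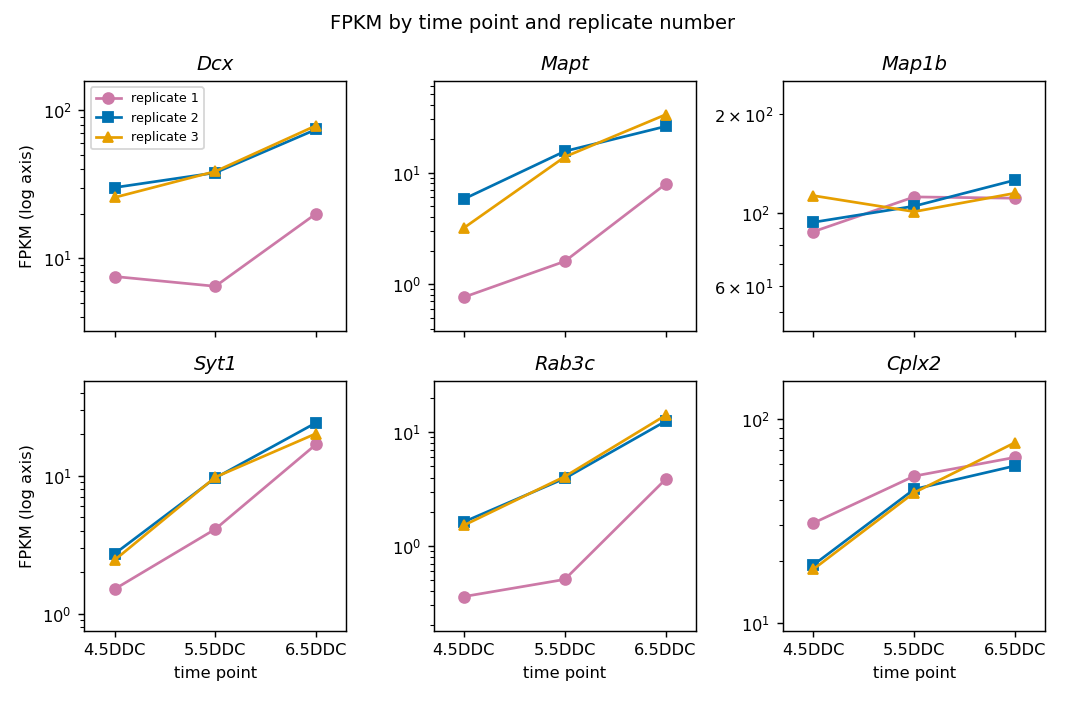
FPKM (log axis, scaled for each gene) of 3 cytoskeleton genes (Dcx, Mapt and Map1b) and 3 synaptic release genes (Syt1, Rab3c and Cplx2) against the time point. Each point is 1 library, and lines join libraries with the same replicate number. For Dcx, Mapt and Rab3c replicate 1 runs below the others, with the smaller change in the first interval and the larger in the second, for Map1b the lines cross near 100 FPKM, and for Cplx2 replicate 1 starts highest.

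Sv2a and Sv2b, glycoproteins of the vesicle membrane, and Vamp2, the main synaptobrevin of central synapses, also rose. Sv2a was at 2.12, 2.32 and 1.89 FPKM at 4.5DDC and at 2.87, 6.68 and 9.04 at 6.5DDC (1.54, SE 0.368, adjusted p = 0.0201). Sv2b was at 0.287, 0.499 and 0.527 FPKM at 4.5DDC, at 0.969, 1.48 and 1.37 at 5.5DDC and at 4.54, 1.61 and 1.48 at 6.5DDC (2.53, SE 0.485, adjusted p = 0.00836). The highest value of Sv2b was that of replicate 1, and the log2 fold change was 1.53 (adjusted p = 0.00282) without that replicate. Vamp2 was at 32.5, 24.4 and 25.4 FPKM at 4.5DDC and at 42.2, 43.6 and 53.3 at 6.5DDC, without overlap (0.80, SE 0.169, adjusted p = 0.0127). Vamp2 had the smallest change of the 11 genes called, and with a mean of 46.4 FPKM at 6.5DDC it was the second most abundant of the 8 synaptic release genes called.

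The other 6 vesicle genes were not called by edgeR with all 9 libraries and the time point as the only factor. Syp (synaptophysin, an abundant vesicle membrane protein) was at 7.43, 11.8 and 8.92 FPKM at 4.5DDC and at 6.90, 24.8 and 30.3 at 6.5DDC (1.37, SE 0.505, adjusted p = 0.0852). Replicate 1 of Syp did not climb in FPKM (0.53 on the log2 scale in counts), while replicates 2 and 3 did, and the gene was called with those alone (1.54, adjusted p = 0.000642). An annotated transcript on the opposite strand covers 16.8% of its exonic bases. Syn1 (synapsin I, which tethers vesicles to the cytoskeleton) was at 1.38, 3.93 and 2.14 FPKM at 4.5DDC and at 2.44, 6.47 and 7.55 at 6.5DDC (1.12, SE 0.60, adjusted p = 0.209). Syn2 (synapsin II) ran the other way across replicates, with 4.28, 1.18 and 1.76 FPKM at 4.5DDC, 4.57, 2.44 and 2.44 at 5.5DDC and 4.21, 4.02 and 3.63 at 6.5DDC. It was the only 1 of the 39 genes for which replicate 1 was highest at every time point, and its change was 0.05 within replicate 1 and 1.81 and 0.89 within replicates 2 and 3 (0.72 with all, adjusted p = 0.257). Rab3a, the GTPase of most synaptic vesicles, had a log2 fold change of 1.20 (SE 0.496, adjusted p = 0.116), Syt11 of 0.49 (SE 0.388, adjusted p = 0.40) and Vamp1 of 0.33 (SE 0.259, adjusted p = 0.384). With replicates 2 and 3 only, all 12 vesicle genes rose.

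Of the 6 release site genes, Cplx2 and Nrxn3 rose and the target-membrane proteins Snap25 and Stx1a did not pass with all 9 libraries. Cplx2 (complexin II, chr13:54371349-54383917), the most abundant of the synaptic release genes at 6.5DDC, was at 30.8, 19.2 and 18.3 FPKM at 4.5DDC, at 52.3, 45.1 and 43.4 at 5.5DDC and at 64.6, 58.7 and 76.3 at 6.5DDC. The 3 time points did not overlap, and the log2 fold change was 1.54 (SE 0.201, adjusted p = 0.002). Nrxn3 (neurexin III, a presynaptic adhesion receptor) was at 0.712, 0.950 and 0.474 FPKM at 4.5DDC and at 1.16, 1.56 and 1.64 at 6.5DDC, with a log2 fold change of counts of 1.71 (SE 0.276, adjusted p = 0.00448), although its mean FPKM rose only 2.04-fold. Snap25 was at 4.5, 13.7 and 7.03 FPKM at 4.5DDC and at 6.54, 15.8 and 20.1 at 6.5DDC (0.83, SE 0.614, adjusted p = 0.357, and 0.87, adjusted p = 0.0269, with replicates 2 and 3 only). Stx1a (syntaxin 1A) was at 6.44, 9.70 and 4.29 FPKM at 4.5DDC and at 3.39, 5.37 and 11.1 at 6.5DDC (−0.12, SE 0.422, adjusted p = 0.864), with changes of −0.99, −0.86 and 1.10 within replicates 1 to 3. Cplx1 (0.94, SE 0.533, adjusted p = 0.236, and called with replicates 2 and 3 only, adjusted p = 0.0397) and Nrxn2 (0.59, SE 0.377, adjusted p = 0.289) were present at a few FPKM and overlapped between the time points.

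The 4 listed genes that make GABA or load glutamate or GABA into vesicles were at or near the floor at 4.5DDC and 5.5DDC. At 6.5DDC, Slc17a6, Gad1 and Gad2 were above it in replicates 2 and 3. Slc17a6 (vesicular glutamate transporter 2) had 0 counts in all 3 libraries of 4.5DDC, 0, 4 and 1 at 5.5DDC and 0, 15 and 36 at 6.5DDC, the last at 0, 0.165 and 0.402 FPKM. A count of 0 at 4.5DDC allows between 0.168 and 0.267 CPM. Gad1, which makes GABA, had between 0 and 12 counts, Gad2 between 0 and 6, and Slc32a1 (vesicular GABA transporter) at most 1. Counts of these genes were too low to pass the filter, and no change is reported for them.

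Upstream sequences were examined for letters of known neuronal regulatory elements. They were taken from RefSeq windows on GRCm38.p6 that run from base −250 to base 50 around each start, and 29 of the 43 genes had such a window. The 4 stretches below belong to the 3 called vesicle genes whose windows hold the E-box CAGCTG (in capitals), a sequence bound by proneural basic helix-loop-helix factors, and to Syn1, the only gene whose window holds an element like RE1, the binding sequence of REST, searched as CAGCACC, 2 bases of any kind and GGNCAG (in capitals). Both strands were searched, each sequence is given 5′ to 3′ on the strand of its gene, and neither search pattern overlaps the other. No exon of GENCODE M21 lies in the 4 stretches, and those of Syt1 and Rab3c lie in introns of longer transcripts of the same gene.
Syt1 (chr10:109009112-109009202, minus strand): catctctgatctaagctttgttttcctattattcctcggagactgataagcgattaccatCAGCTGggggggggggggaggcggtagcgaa
Rab3c (chr13:110280249-110280374, minus strand): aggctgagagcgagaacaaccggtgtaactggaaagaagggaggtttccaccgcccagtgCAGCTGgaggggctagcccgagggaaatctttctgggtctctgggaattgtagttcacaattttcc
Sv2a (chr3:96180977-96181063, plus strand): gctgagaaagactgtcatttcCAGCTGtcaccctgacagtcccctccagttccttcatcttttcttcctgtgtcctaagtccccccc
Syn1 (chrX:20921074-20921168, minus strand): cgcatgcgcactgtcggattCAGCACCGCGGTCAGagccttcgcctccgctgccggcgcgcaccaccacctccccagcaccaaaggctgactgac

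The E-box was found in the windows of 8 of the 29 genes (27.6%: Cplx1, Cplx2, Ina, Rab3a, Rab3c, Stx1a, Sv2a and Syt1), beside 18.3% of all 27025 symbols with a window and 16.3% of 32851 windows. The 8 genes include rising genes (Syt1, Rab3c, Sv2a and Cplx2) and Stx1a, with a log2 fold change of −0.12, so genes with the sequence differed widely in their change. The stretches around the E-box of Cplx1 and Cplx2 overlap exons of Gm43364 and Gm48623. That of Cplx2 (chr13:54302334-54302459) lies upstream of, and outside, the position of the gene given above. The RE1-like element was found in the window of Syn1 alone (1 of 29), beside 0.0666% of all symbols, between bases −230 and −216 from the start. These matches describe the letters of a short window and are no record of binding.

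Calls in the intervals of 1 day depended on the fit. In the first interval (4.5DDC to 5.5DDC) and in the second (5.5DDC to 6.5DDC), 0 and 0 of the 39 genes were called by edgeR without the block, where 0.0746% and 0.224% of all genes were called in either direction. At an unadjusted p under 0.05 there were 6 and 8 of the 39 genes, close to the 15.4% and 18.5% of all genes, and DESeq2 called 3 and 3, beside 3.8% and 4.77% of all genes to which it gave an adjusted p. With the replicate number as a block, Ncam1, Syt1 and Cplx2 rose in the first interval (log2 fold changes 0.96, 1.72 and 1.02, adjusted p = 0.0186, 0.0146 and 0.0293), beside 1.27% of all genes called higher. In the second interval Dcx, Syt1, Syt4 and Rab3c rose (1.22, 1.51, 1.95 and 2.12, adjusted p = 0.024, 0.0225, 0.0297 and 0.0225), beside 0.787% of all genes. Adjusted p-values over the alternatives ran from 0.000138 to 0.422 for the 3 genes of the first interval and from 0.00262 to 0.751 for the 4 of the second. Syt1 was therefore the only 1 of the 39 genes called in both intervals with the block.

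The intervals themselves were compared by the difference of their changes. No gene differed between the intervals (0 of 39 called, 0 at an unadjusted p under 0.05, smallest adjusted p 0.76, and 0 called by DESeq2), and 0% of all genes did. In values, the synaptic release median was 0.58 in the first interval and 0.54 in the second, and the cytoskeleton median was 0.26 and 0.29. The cytoskeleton medians depended on the fit, with 0.15 and 0.53 under the replicate block and 0.35 and 0.22 with replicates 2 and 3 only. Within replicate 1 the cytoskeleton median was −0.37 in the first interval and 1.34 in the second, while within replicate 2 it was 0.13 and −0.05 and within replicate 3 it was 0.69 and 0.48. All 3 replicate numbers were higher at 5.5DDC than at 4.5DDC for 11 of 18 synaptic release genes and for 2 of 18 cytoskeleton genes, and higher at 6.5DDC than at 5.5DDC for 13 and 8, beside 24.6% and 24.3% of all genes tested in the 2 intervals.

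**Figure D4:**
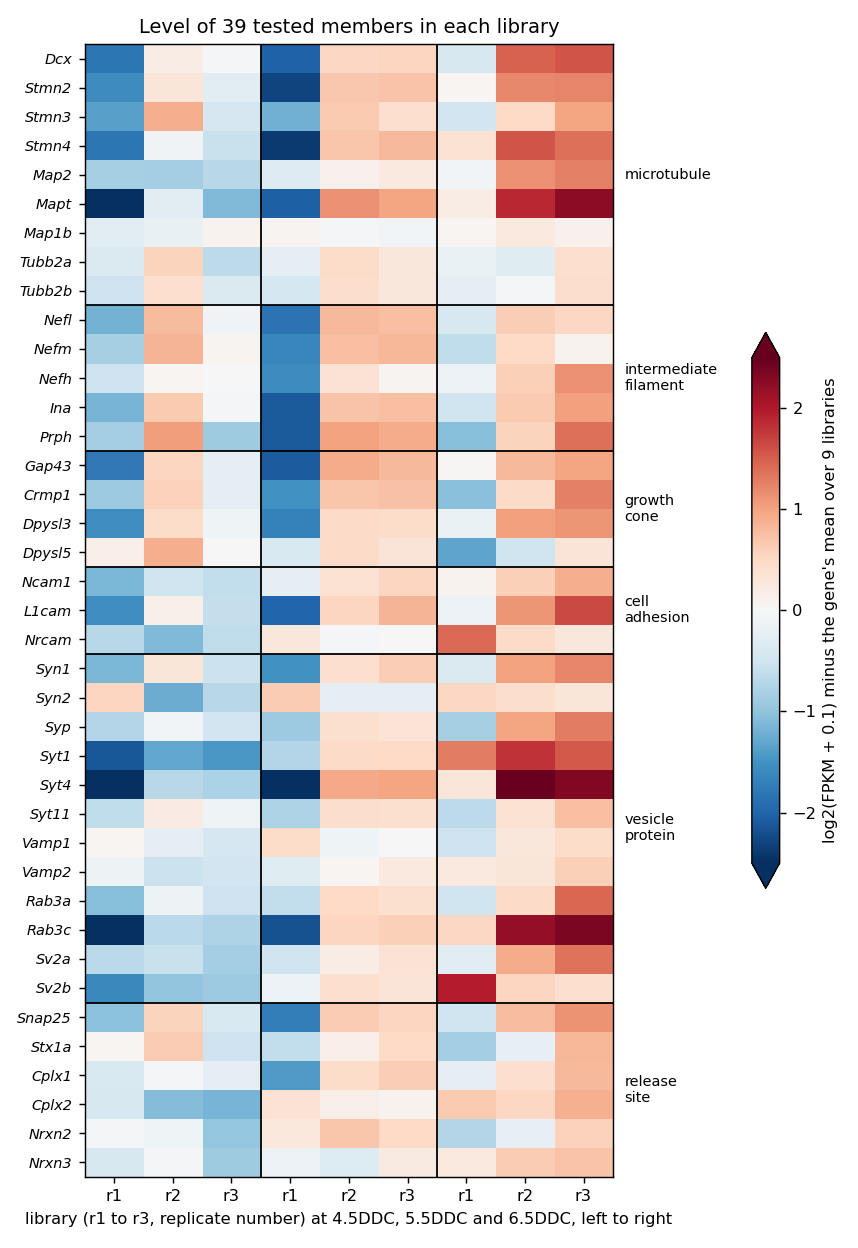
Level of each of the 39 tested genes (rows, grouped by list) in each of the 9 libraries (columns), as log2(FPKM + 0.1) minus the mean of the gene, with blue below and red above that mean. The columns of replicate 1 at 4.5DDC and 5.5DDC are the bluest for most cytoskeleton genes and for Syt4 and Rab3c, and the columns of replicates 2 and 3 at 6.5DDC are the reddest.

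Many of the cytoskeleton genes differed by replicate number. In a fit with the time point and the replicate number, 19 of the 39 genes differed by replicate number in edgeR's quasi-likelihood test, beside 5.41% of all genes in either direction, and replicate 1 was the lower for all 19. They were 11 of 18 cytoskeleton genes (Dcx, Stmn2, Stmn3, Stmn4, Mapt, Nefl, Nefm, Ina, Gap43, Crmp1 and Dpysl3), 2 of 3 adhesion genes (Ncam1 and L1cam) and 6 of 18 synaptic release genes (Syn1, Syp, Syt4, Syt11, Rab3c and Snap25). The median log2 difference of replicates 2 and 3 from replicate 1 was 1.75 over the cytoskeleton genes, 0.74 over the synaptic release genes and −0.01 over all genes tested. In FPKM, replicate 1 was the lowest at every time point for 24 of the 39 genes (13 cytoskeleton, 9 synaptic release and 2 adhesion genes), beside 11.8% of all genes, and the highest at every time point for 1 (Syn2), beside 10.1%. That replicate 1 stands apart was known before this test, and the test describes these libraries.

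The sizes by gene show how far replicate 1 lay from the others. For Syt4 the log2 difference was 2.70 (adjusted p = 0.00548), for Mapt 2.59 (0.0102), for Rab3c 2.24 (0.00385), for L1cam 2.20 (0.0186) and for Dcx 2.09 (0.00149). The mean FPKM of Dcx in replicates 2 and 3 was 3.71, 5.93 and 3.84 times that of replicate 1 at the 3 time points, and for Syt4 it was 5.22, 14.4 and 4.35 times. The gap of both genes was widest at 5.5DDC. Map1b (0.06), Vamp2 (0.09), Vamp1 (−0.10) and Nrxn3 (0.23) had differences near 0, and Cplx2 (−0.32), Nrcam (−0.52) and Syn2 (−0.87) had negative ones that did not pass (adjusted p = 0.586, 0.395 and 0.184). On log2 FPKM instead of counts, limma called 5 genes for the replicate number with a pseudocount of 1 and 6 with 0.1. Without 1 library the count was 8 (replicate 2 at 4.5DDC, or replicate 1 at 5.5DDC) or 10 (replicate 1 at 4.5DDC).

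**Figure D5:**
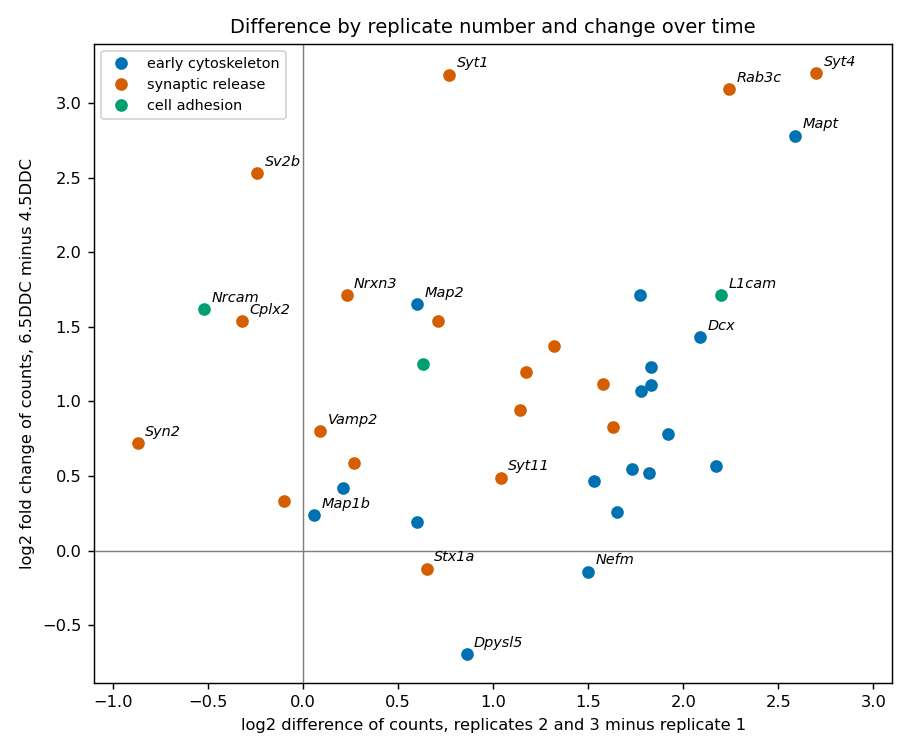
Log2 difference of counts between replicates 2 and 3 and replicate 1 (horizontal axis) and log2 fold change of counts from 4.5DDC to 6.5DDC (vertical axis) for the 39 tested genes, coloured by list. Cytoskeleton genes gather to the right, with a median difference of 1.75, and synaptic release genes range from Syn2 at −0.87 to Syt4 at 2.70. Sv2b, at −0.24 and 2.53, lies high on the left.

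Further genes of the same machinery, and some other neuronal genes, were followed through fixed lists. Beside the calls in these lists and in the lists below, 9.21% of all genes tested were called higher and 9.53% lower from 4.5DDC to 6.5DDC. Of 30 tested other synaptic release genes, 4 rose and 0 fell from 4.5DDC to 6.5DDC, 29 had positive values and the median was 0.80. The count of 4 is near the share of all genes called higher and does not set this list apart. Among those that rose were Rims1 (an active zone scaffold, 2.53, adjusted p = 0.0447) and Snph (syntaphilin, which anchors mitochondria, 1.38, 0.0374). Rph3a (a Rab3 effector), counted among the 4, was at 0, 0.0513 and 0 FPKM at 4.5DDC and at 0.0303, 0.266 and 0.711 at 6.5DDC, and as no library of 4.5DDC was above the floor of detection its place in the count supports nothing. Rims1 was at 0.034, 0.128 and 0.171 FPKM at 4.5DDC and at 0.296, 0.881 and 0.877 at 6.5DDC, without overlap. Of 19 tested other neuronal cytoskeleton genes 1 rose (Nsg2, 0.79, adjusted p = 0.0116), 1 fell (Bex1, −1.27, 0.0193) and the median was 0.48. Neither member acts on microtubules directly, as Nsg2 is a protein of neuronal endosomes and Bex1 a small signalling protein. The list also holds Nsg1, Bex2, Uchl1 and Sncg, so its median is not one of cytoskeleton genes alone. With all 9 libraries the lists of further genes had medians in the same order as the 43, but the cytoskeleton lists are not like for like. Within replicate 1 the medians were 0.03 for the other synaptic release genes and 0.05 for the other cytoskeleton genes.

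Other transmitter genes could be tested. Of 11 of them, 5 rose and 2 fell, with a median of 2.54. Slc17a8 (vesicular glutamate transporter 3) was at 1.29, 0.566 and 1.93 FPKM at 4.5DDC and at 14.7, 28.4 and 30.4 at 6.5DDC (4.23, SE 0.536, adjusted p = 0.00173). Slc18a2 (the vesicular monoamine transporter) was at 12.4, 4.49 and 5.46 FPKM at 4.5DDC and at 50.9, 37.4 and 42.4 at 6.5DDC (2.54, SE 0.366, adjusted p = 0.00273), and replicate 1 was its highest library at each time point. Tph2, the serotonin-synthesizing enzyme of neurons, was at 0.0693, 0.0554 and 0.128 FPKM at 4.5DDC and at 1.3, 0.337 and 0.605 at 6.5DDC (2.95, adjusted p = 0.0117). Slc6a4, the serotonin transporter, was at 0.0954, 0 and 0.0205 FPKM at 4.5DDC and at 1.45, 0.834 and 0.671 at 6.5DDC. Its counts at 4.5DDC were under the floor of detection, so it entered the test through the later time points, and its place among the 5 supports nothing. Tph2 was also near 0 at 4.5DDC and may have entered in the same way, so its place among the 5 is not taken as support either. Dbh (the noradrenaline-synthesizing enzyme, −1.93) and Ddc (−1.53) fell.

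Of 12 tested genes of REST and its cofactors, 1 fell (Rcor2, the CoREST2 cofactor, −0.72, adjusted p = 0.0388), 0 rose and the median was −0.25. The count of 1 is near the 9.53% of all genes called lower and does not set this list apart. With replicates 2 and 3 only, Rcor2 did not pass (−0.68, adjusted p = 0.0593) and Rcor3 was higher (0.92, adjusted p = 0.0155, and 0.0772 with all libraries). Rest itself was at 17.9, 10.6 and 13.4 FPKM at 4.5DDC, at 19.9, 11.8 and 12.0 at 5.5DDC and at 13.4, 12.4 and 11.1 at 6.5DDC (−0.19, SE 0.248, adjusted p = 0.615). Replicate 1 was the highest library of Rest at each time point, with a log2 difference of −0.53 of the others from it (adjusted p = 0.146). Of 11 neuronal RNA-binding protein genes, Celf4 and Celf5 rose (2.03 and 1.86, adjusted p = 0.0463 and 0.0473), 0 fell and the median was 0.56.

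The label of neural progenitors fitted the abundant markers Vim, Nes and Sox2, while other progenitor markers were low, and neuron markers were present beside them. At 6.5DDC, Hes5 was at 0.684, 0.829 and 1.9 FPKM and Pax6 at 2.19, 0.722 and 0.719. Neither was called with all libraries (−2.10 and −1.85, adjusted p = 0.0522 and 0.0575 by edgeR). Pax6 fell with replicates 2 and 3 only (−2.90, adjusted p = 0.00135). Summed FPKM of 14 progenitor markers was between 2345 and 3409 across the libraries, with Vim between 1235 and 2455, Nes between 138 and 172 and Sox2 between 78.2 and 96.0 FPKM, and 2 rose (Prom1 and Slc1a3), 2 fell (Sox3 and Nkx6-1) and the median change was 0.02. Prom1, which encodes the protein of the sort, rose by 1.19 on the log2 scale (adjusted p = 0.00363). The 9 neuron markers with a row summed to 181, 275 and 240 FPKM at 4.5DDC, to 194, 316 and 363 at 5.5DDC and to 218, 428 and 455 at 6.5DDC. Of these 9 markers 3 rose (Nsg2, Myt1l and Celf4), 0 fell and the median was 0.85, and 6 were lower in replicate 1 in the test of the replicate number, with Elavl4 at 48.9, 70.1 and 61.7 FPKM at 4.5DDC. The other 6 markers were not called over time, among them Elavl3 (0.04, adjusted p = 0.959) and Elavl4 (0.25, 0.581). The lists share genes, as Nsg2 and Kif5c are also among the other neuronal cytoskeleton genes. Elavl3, Elavl4, Rbfox3 and Celf4 are also among the RNA-binding protein genes. The rises of Nsg2 and Celf4 are thus counted in more than 1 list. The part of the neuron markers in the results was not tested.

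Summed markers of other cell types ranged from near 0 to levels like the sums of the synaptic release genes, the highest resting on Cxcr4 and Foxa1. Pluripotency markers summed to at most 6.49 FPKM (0 of 2 tested called by edgeR, 0 at an unadjusted p under 0.05, Pou5f1 at most 0.606), and oligodendrocyte precursor and astrocyte markers to between 17.1 and 34.6 (Aldh1l1 and Aqp4 rose, Sox10 at most 0.0377). Olig2 was at 0.564, 9.97 and 4.45 FPKM at 4.5DDC and at 0.0533, 0.528 and 1.44 at 6.5DDC (−2.89, adjusted p = 0.115, and −2.91, adjusted p = 0.00399, with replicates 2 and 3 only). Olig2 and Olig1 were lower in replicate 1, by a log2 difference of 3.75 and 5.13 in the test of the replicate number (adjusted p = 0.00578 and 0.0252). Olig1 was at 0.0426, 0 and 0 FPKM in replicate 1 at 4.5DDC, 5.5DDC and 6.5DDC and at most 1.74 in any library. The size of its difference therefore rests on values near 0. Mesenchyme and neural crest markers summed to between 7.49 and 15.2 FPKM at 4.5DDC and to between 14.5 and 53.3 at 6.5DDC (1 of 7 rose, Twist1), with replicate 1 lowest at each time point. With replicates 2 and 3 only, 3 of the 7 rose (Col3a1, Col1a2 and Pdgfrb, adjusted p = 0.0015, 0.00477 and 0.0141) and Twist1 did not pass (0.0686), and Col3a1 was lower in replicate 1 (log2 difference 3.71, adjusted p = 0.00149). Endoderm markers summed to between 127 and 165 FPKM, of which Cxcr4 made up between 85.2 and 126 and Foxa1 between 19.3 and 50.6. The rest of that list was low, with Sox17 at most 0.529, Afp 0.569, Gata6 1.63, Ttr 2.34, Cldn6 3.33 and Gata4 7.62 FPKM. The endoderm sum is therefore mostly that of Cxcr4 and Foxa1. With the time point as the only factor, edgeR called 0 of 6 from 4.5DDC to 6.5DDC (0 at an unadjusted p under 0.05). With the replicate block it called 3 of the 6 higher, and with replicates 2 and 3 only Foxa1 was higher (0.60, adjusted p = 0.0173). In the test of the replicate number, 3 of the 6 were higher in replicate 1. Endothelial and blood markers summed to at most 8.81 FPKM (1 of 4 rose, Kdr, and Hba-a1 was at 0 throughout). Muscle and placode markers summed to between 53.1 and 94.7 FPKM at 4.5DDC and to between 42.1 and 65.8 at 6.5DDC (Myod1 was at 0 throughout). The part of these lists in the results was not tested.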

How the data were processed

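RNA of prominin-1 sorted NSCs was measured in 9 libraries, grouped by the time point in the labels (4.5DDC, 5.5DDC and 6.5DDC, with 3 replicates each; another label field gives 4, 5 and 6 days). The authors mapped 1 read per fragment to GRCm38 with TopHat 2.0.4 and counted reads per gene with htseq-count 0.6.1. The deposited counts were treated as estimated counts, since 98 of 38197 symbols held values that were not whole (0 of them members), and were rounded, although the tests had been planned for whole counts. The authors computed FPKM with Cufflinks 2.1.1, and these deposited FPKM values served as levels without rescaling. The deposited log2 values, which the authors made with limma voom without normalization, equalled recomputed ones within 4.97e-14 and were not tested. The annotation release and strand setting of the counting are not given in the sources used here.

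Genes were filtered with filterByExpr by time point (14742 kept), scaled by TMM (factors between 0.951 and 1.035) and fitted with edgeR 4.0.16 in R 4.3.3 by 1 quasi-likelihood model of all 9 libraries (common dispersion 0.0733, 6 residual degrees of freedom). The median log2 fold change over all genes was 0.00398 from 4.5DDC to 6.5DDC. The replicate number was tested by its 2 coefficients beside the time point. Same-numbered libraries deviated together from 4.5DDC to 5.5DDC (correlations across genes 0.743, 0.386 and 0.452) and from 5.5DDC to 6.5DDC (0.454, 0.367 and 0.197), so the number was taken to pair adjacent time points, and the labels do not say what it stands for. Replicates 2 and 3 also correlated with each other across time points (0.225 to 0.487), so mainly replicate 1 is set apart by its number. Replicate 3 of 5.5DDC correlated more with replicate 2 of 6.5DDC (0.406) than with replicate 3 (0.197). A pairing of replicates 2 and 3 by number is therefore not shown, and the block is no paired analysis for them. The procedure was tested on simulated data, and the outcome is not reported here.

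Alternatives were other scalings and filters, limma 3.58.1 (voom, and log2 FPKM with pseudocounts of 1 and 0.1), DESeq2 1.42.0, the 6 libraries of the time points compared, the replicate block and leaving out each library; the fit to replicates 2 and 3 was added after seeing the data. All 43 members could be named, and genes of other lists where they passed the test from 4.5DDC to 6.5DDC or were the most abundant or defining genes of their list. The members, the lists and the searched motifs were chosen with earlier results of these data known. Lists of other cytoskeleton, synaptic release, transmitter, RNA-binding protein and REST cofactor genes and of markers of 8 cell types were used, and single results for a few of their genes are not reported here. Tables and plots were made with Python 3.11.15, pandas 2.3.3, numpy 2.4.6 and matplotlib 3.10.9. Positions are from GENCODE M21 on GRCm38, in which all 43 symbols matched 1 gene each. Intervals and floors cover counting error only.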

Additional observations from a re-analysis of the deposited data

How the results depend on the processing

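From 4.5DDC to 6.5DDC, 11 of the members were called; the fit with the replicate block gave 22 (21 higher, among them 7 cytoskeleton and 11 synaptic release genes, and Dpysl5 lower at −0.78, adjusted p = 0.0385), where 13.0% of all genes were called higher and 10.2% lower, the fit to replicates 2 and 3 only gave 26 (25 of the 39, and Slc17a6, which passed the filter through 6.5DDC alone, so that its call is no evidence), and leaving out each library in turn gave between 7 (without replicate 2 of 4.5DDC) and 16. Replicate numbers of 4.5DDC and 6.5DDC did not deviate together in every pair (correlations 0.383, −0.0396 and −0.215), so the block over this span is no paired analysis. From 4.5DDC to 5.5DDC the count of 0 became 1 with no filter on low counts, 3 with DESeq2, 3 with the replicate block, 10 with replicates 2 and 3 only (beside 3.31% of all genes) and between 0 and 1 on leaving out a library. From 5.5DDC to 6.5DDC the count of 0 became 3 with DESeq2, 4 with the replicate block, 9 with replicates 2 and 3 only (beside 4.97% of all genes) and between 0 and 2 on leaving out a library. The count of 19 for the replicate number became 5 on log2(FPKM + 1), 6 on log2(FPKM + 0.1) and between 8 and 23 on leaving out a library. The synaptic release median exceeded the cytoskeleton median by 0.60, and by between 0.29 and 0.75 under the alternatives. Log2 fold changes that turned sign from 4.5DDC to 6.5DDC were those of genes that were not called. On leaving out a library Tubb2b ranged from −0.00 (without replicate 3 of 6.5DDC) to 0.49, Nefl from −0.11 (without replicate 1 of 4.5DDC) to 0.80, Nefm from −0.47 to 0.32 (without replicate 2 of 4.5DDC, and 0.10 without replicate 1 of 6.5DDC), Prph from −0.04 (without replicate 3 of 6.5DDC) to 1.51 and Stx1a from −0.72 to 0.18 (without replicate 1 of 6.5DDC, 0.12 without replicate 2 of 4.5DDC and 0.02 without replicate 2 of 6.5DDC). Stx1a was at 0.16 with replicates 2 and 3 only. Of the values of single genes over time, 876 kept their direction and their side of the threshold, 59 passed it in addition, 22 no longer passed and 9 turned sign. Syt1, Cplx2, Map2, Ncam1, Nrcam and Sv2b were called under all 21 alternatives, Nrxn3 and Vamp2 under 20, Rab3c and Sv2a under 16 and Syt4 under 11. The cause of these differences was not tested. Nefh, with between 1 and 48 counts per library, and the 4 transmitter genes, with at most 36, have values that rest on few counts.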
